A study of Mus musculus with 4 samples.

Results

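The Hox genes are the 39 genes whose GENCODE mouse symbol is Hox followed by a cluster letter, a to d, and a number, out of 22524 genes counted in each library. Members were taken by symbol alone, with no use of their values. The choice of Hox genes as the subject was made with earlier results of these data known. The Hoxa cluster on chromosome 6 held 11 of them, the Hoxb cluster on chromosome 11 held 10, and the Hoxc cluster on chromosome 15 and the Hoxd cluster on chromosome 2 held 9 each. The RNA came from hyperplastic dermis of mice, labelled pre-tumorigenic, from which cells positive for tdTomato had been sorted, and there were 2 libraries in each of 2 groups. Every mouse carried Tyr::NrasQ61K, in which the tyrosinase promoter drives oncogenic Nras, together with Tyr::CreERT2, a recombinase that tamoxifen activates in cells using that promoter, and the reporter R26R-LSL-tdTomato. The group called Ezh2Y646N also carried ColA1-LSL-Ezh2Y646N, a conditional copy of mutant Ezh2, and the group called NrasQ61K did not. The labels give neither the age of the mice nor whether replicates came from separate animals, so p-values measure only the spread between these libraries, which may be technical. The comparison asks whether adding the mutant Ezh2 to the NrasQ61K background went with a difference in Hox RNA.

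Hox genes encode homeodomain transcription factors that give cells their place along the body axis. Their order on the chromosome follows the order in which they are used from head to tail, and genes with the same number in different clusters are paralogues that descend from one ancestral gene. They are classic targets of Polycomb, the repressive system in which Ezh2, the catalytic subunit of Polycomb repressive complex 2 (PRC2), methylates histone H3 at lysine 27, while MLL-type methyltransferases act in the opposite direction. In adult skin, fibroblasts and keratinocytes keep a Hox pattern that reflects their site of origin. Hoxc13 departs from this rule, since it is used in hair follicles and nails all over the body and is required for the hair shaft.

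Total counts were 14808801 to 20600297 per library. Reads assigned to Hox genes were 6823 and 6563 in the Ezh2Y646N libraries and 7447 and 8378 in the NrasQ61K libraries. These were 0.0377% and 0.0435% of all counts in the first group (95% Wilson intervals 0.0368 to 0.0386 and 0.0425 to 0.0446) and 0.0503% and 0.0407% in the second (0.0492 to 0.0514 and 0.0398 to 0.0415). The intervals cover counting error only, and the share of Hox reads overlapped between groups. Of the melanocyte markers, 12 of 12 were detected, with a summed level of 2761 to 4073 CPM per library (counts relative to library size, scaled by TMM), and none was at 0. Epidermal markers summed to 56127 and 61586 CPM in the Ezh2Y646N libraries and to 17445 and 38178 CPM in the NrasQ61K libraries, so RNA of epidermal genes was present in all sorted samples. Levels below are those of the whole sorted sample, in which fewer cells of a type and less RNA per cell cannot be told apart. Ezh2 itself was at 135 and 91.6 CPM in the Ezh2Y646N libraries and at 171 and 75.1 CPM in the NrasQ61K libraries. The groups overlapped, and a count per gene holds mutant and endogenous Ezh2 RNA together.

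Hox RNA was concentrated in the middle of the clusters. To compare genes of different length, CPM was divided by the length of each gene's merged exons in kilobases. On that scale the genes at positions 4 to 8 made up 78.4% and 79.4% of the summed Hox level in the Ezh2Y646N libraries and 61.7% and 68.5% in the NrasQ61K libraries. The genes at positions 1 to 3 made up 8.25% to 9.36% in the 4 libraries. Positions 10 to 13 contributed 8.79%, 8.04%, 26.6% and 16%, nearly all of it from Hoxc13. The highest gene was Hoxa7, with 39.8 and 57.1 CPM per kb in the Ezh2Y646N libraries and 15.2 and 24.8 in the NrasQ61K libraries. Hoxc13 came second, with 12.7 and 14 against 48 and 23.5. The order of these leaders was not the same in all libraries, Hoxa7 being above Hoxc13 in both Ezh2Y646N libraries and in NrasQ61K replicate 2 and below it in NrasQ61K replicate 1. Next came Hoxb7 (a mean of 13.5 CPM per kb over the 4 libraries), Hoxb6 (11.7), Hoxc8 (11) and Hoxb8 (9.74). Of the 38 neighbouring pairs in the order of mean levels, 37 had ranges over the libraries that overlapped. The exception was Hoxb8 with 9.31 to 10 CPM per kb, above Hoxa5 with 5.63 to 8.97.

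**Figure D1:**
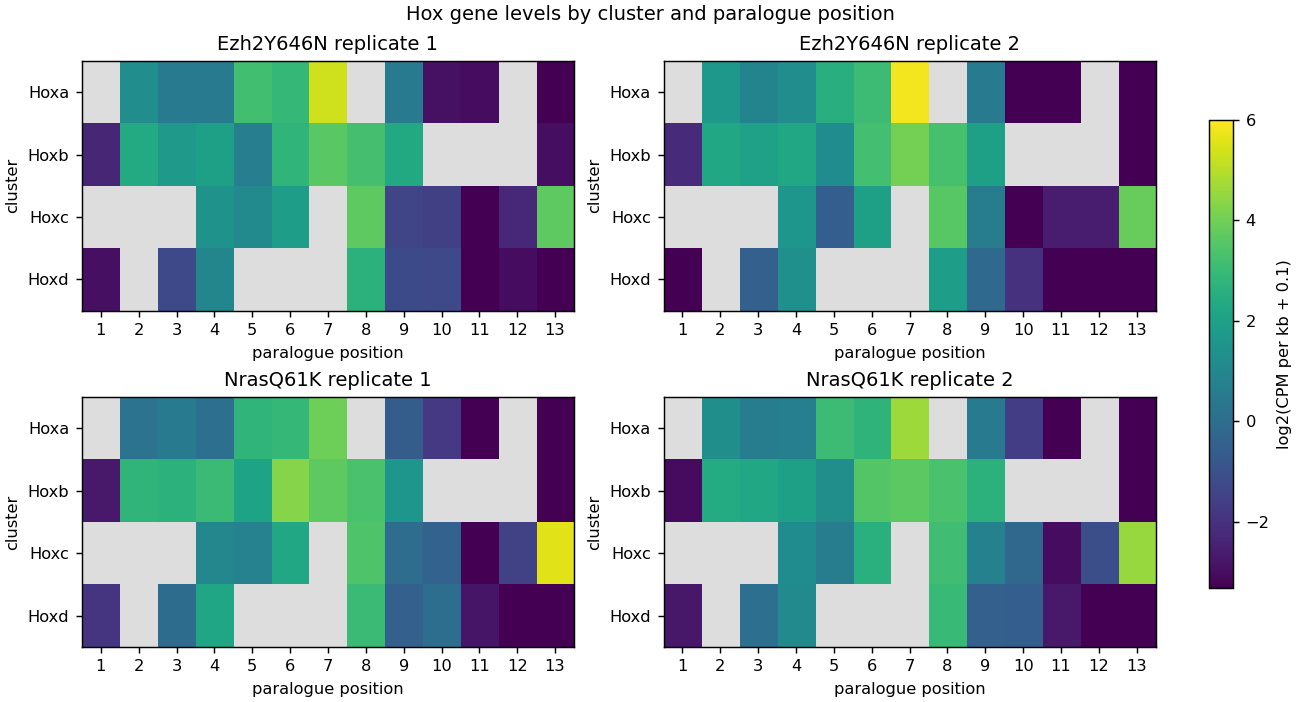
Level of each Hox gene in each of the 4 libraries, as the colour of log2 of CPM per kb with 0.1 added, with clusters in rows and paralogue positions in columns. Grey cells hold no gene or one that is not shown. The brightest cells lie at positions 4 to 8 and at Hoxc13, with Hoxa7 brighter in the upper (Ezh2Y646N) and Hoxc13 brighter in the lower (NrasQ61K) panels.

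The ends of the clusters were near silent apart from Hoxc13. Hoxa13 and Hoxd13, which pattern the digits and the genital tubercle, had 0 counts in all 4 libraries, where 3 counts would correspond to 0.144 to 0.207 CPM. Hoxa11, Hoxb13 and Hoxd12 had 1 count each, all in Ezh2Y646N replicate 1. Hoxc11 had 2 counts in Ezh2Y646N replicate 2 and 1 in NrasQ61K replicate 2. At the head end Hoxb1, a gene of the hindbrain, had 4, 4, 2 and 1 counts, and Hoxd1 had 1, 0, 5 and 2. In all, 10 members did not pass the filter on low counts and 29 were tested, namely 9 Hoxa, 8 Hoxb, 7 Hoxc and 5 Hoxd genes. Homeobox genes beside or related to the clusters were equally low. Evx1 and Evx2, at the tail end of the Hoxa and Hoxd clusters, and Cdx4, a caudal factor that drives Hox genes in the embryo, had 0 counts in all libraries. None of the 8 genes in this list passed the filter, and its few counts, such as 8 each for Cdx1 and Pdx1, were all in Ezh2Y646N replicate 1.

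Polycomb complexes are recruited to CpG-rich DNA in mammals, and CpG was therefore counted upstream of the Hox genes. RefSeq windows of GRCm38.p6 were matched for 22 of the 39 genes, 24 windows in all. In the 250 bases before each start the Hox windows held a median of 12.5 CpG dinucleotides (the letters CG, which read the same on both strands), against a median of 6 over 32851 windows of all genes. At least 15 CpG were found in 37.5% of the Hox windows and in 27.3% of all windows. With the window of most CpG taken for each gene, 6 genes had 10 counts or fewer over the libraries together. Their median was 22 CpG (10 to 35), and that of the other 16 was 12. These medians depend on the count cut and on the choice of window. Hoxb1, just over the cut at 11 counts, had 7 CpG, and the other window of Hoxd11 had 2. Of the 16, Hoxa5 and Hoxa6 had 28 and 24 CpG, so the ranges overlapped. The difference was not tested. The largest number was 35, upstream of Hoxa13, and 2.97% of all windows had as many. These are descriptions of sequence, and no binding or histone mark was measured. Below are stretches before RefSeq starts that overlap no annotated exon, with each CpG in capitals. They are for a gene at 0 (Hoxa13) and a low gene whose libraries did not overlap between groups (Hoxd10). A steady and well expressed gene (Hoxb8) and the highest gene (Hoxa7) follow. For Hoxa7 the longest such stretch in its window, of 112 bases, is printed, and the whole window held 7 CpG. The Hoxa7 start lies inside the gene's GENCODE span, so that stretch is intronic in that annotation.
Hoxa13 (chr6:52260881-52261130, minus strand, 35 CpG): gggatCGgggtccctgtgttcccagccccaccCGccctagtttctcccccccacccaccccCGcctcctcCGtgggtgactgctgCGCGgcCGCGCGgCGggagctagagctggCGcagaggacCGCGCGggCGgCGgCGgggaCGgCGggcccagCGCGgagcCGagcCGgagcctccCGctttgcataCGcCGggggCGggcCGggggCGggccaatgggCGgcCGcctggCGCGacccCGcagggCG
Hoxd10 (chr2:74691641-74691890, plus strand, 20 CpG): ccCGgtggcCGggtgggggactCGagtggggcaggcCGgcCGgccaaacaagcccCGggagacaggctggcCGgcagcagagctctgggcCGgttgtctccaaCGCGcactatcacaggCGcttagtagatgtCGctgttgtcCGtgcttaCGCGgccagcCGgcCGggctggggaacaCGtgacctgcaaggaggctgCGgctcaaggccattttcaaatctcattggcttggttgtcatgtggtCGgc
Hoxb8 (chr11:96281655-96281904, plus strand, 12 CpG): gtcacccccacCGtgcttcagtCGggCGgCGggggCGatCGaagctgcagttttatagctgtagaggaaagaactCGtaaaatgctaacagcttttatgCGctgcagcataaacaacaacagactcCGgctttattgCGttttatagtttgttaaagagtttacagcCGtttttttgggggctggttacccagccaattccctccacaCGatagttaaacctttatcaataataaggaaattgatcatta
Hoxa7 (chr6:52218712-52218823, minus strand, 4 CpG): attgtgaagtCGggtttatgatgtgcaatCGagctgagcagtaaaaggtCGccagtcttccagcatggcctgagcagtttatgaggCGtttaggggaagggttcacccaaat

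Between the groups no single Hox gene passed the threshold, and the values nearest to it were a higher Hoxa7 and a lower Hoxc13 in the Ezh2Y646N libraries. In edgeR's quasi-likelihood test, at a Benjamini-Hochberg adjusted p under 0.05 over all genes tested, 0 of 29 Hox genes were called, while 253 of 14265 genes (1.77%) were. An unadjusted p under 0.05 was found in 4 Hox genes, against 14.3% of all genes tested, a share close to that of the members. Of these Hoxa7 was higher, beside 7.28% of all genes, and Hoxc13, Hoxb6 and Hoxa10 were lower, beside 7.02%. DESeq2 called Hoxa7 higher and Hoxc13 lower, where it called 6.5% of all genes, and limma voom called 0 where it called 1.5%. With no filter on low counts (6.95% of all genes called) and with the replicate number as a term (9.37%), Hoxa7, Hoxc13 and Hoxb6 were called. Log2 fold changes, Ezh2Y646N over NrasQ61K, were above 0 in 10 Hox genes, where 46% of all genes were, and below 0 in 19, where 54% were, with a median of -0.22 beside -0.04 over all genes tested. The median was 0.37 for Hoxa, -0.39 for Hoxb, -0.50 for Hoxc and -0.68 for Hoxd. The Hoxa median was 0.08 without Ezh2Y646N replicate 2, 0.14 without NrasQ61K replicate 1 and 0.58 without NrasQ61K replicate 2. The Hoxb median ranged from -0.61 (without NrasQ61K replicate 2) to -0.22 (without NrasQ61K replicate 1), and the Hoxc median was -0.29 without NrasQ61K replicate 2. In 17 of the 29 the libraries separated by group, beside 44.2% of all genes tested. Of these 5 were higher in Ezh2Y646N (21.1% of all genes) and 12 lower (23.1%). Hoxa10, Hoxc10 and Hoxd10 are among the 12 and among the 19 below 0, and Hoxa10 is among the 4 with a small unadjusted p. Each passed the filter on low counts only through the NrasQ61K libraries, where it is high, so these tallies are no support for a direction. The clusters differed in their sums more than the total did. All Hox genes together came to 154 and 177 CPM per kb in the Ezh2Y646N libraries and 189 and 160 in the NrasQ61K libraries, with overlap. The Hoxa sum was 62.9 and 80.2 against 33.9 and 47, and the Hoxc sum 34.6 and 34.6 against 69 and 44.5. The Hoxb sum was 47.1 and 54.9 against 70.5 and 56.1, and the Hoxd sum 9.06 and 7.69 against 15.2 and 12.1. None of the 4 cluster sums overlapped between groups, and each was most extreme in NrasQ61K replicate 1. Single genes carried much of this in the Hoxa, Hoxb and Hoxc clusters. Without Hoxc13 the Hoxc sum was 21.9 and 20.7 against 20.9 and 21 and overlapped. Without Hoxb6 the Hoxb sum was 40.3 and 45.7 against 51 and 44.8 and overlapped. Without Hoxa7 the Hoxa sum was 23.1 and 23.1 against 18.8 and 22.2, which still did not overlap. Without Hoxd8 the Hoxd sum was 2.84 and 4.07 against 7.1 and 4.38, also with no overlap. These genes were picked out after their values were seen.

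**Figure D2:**
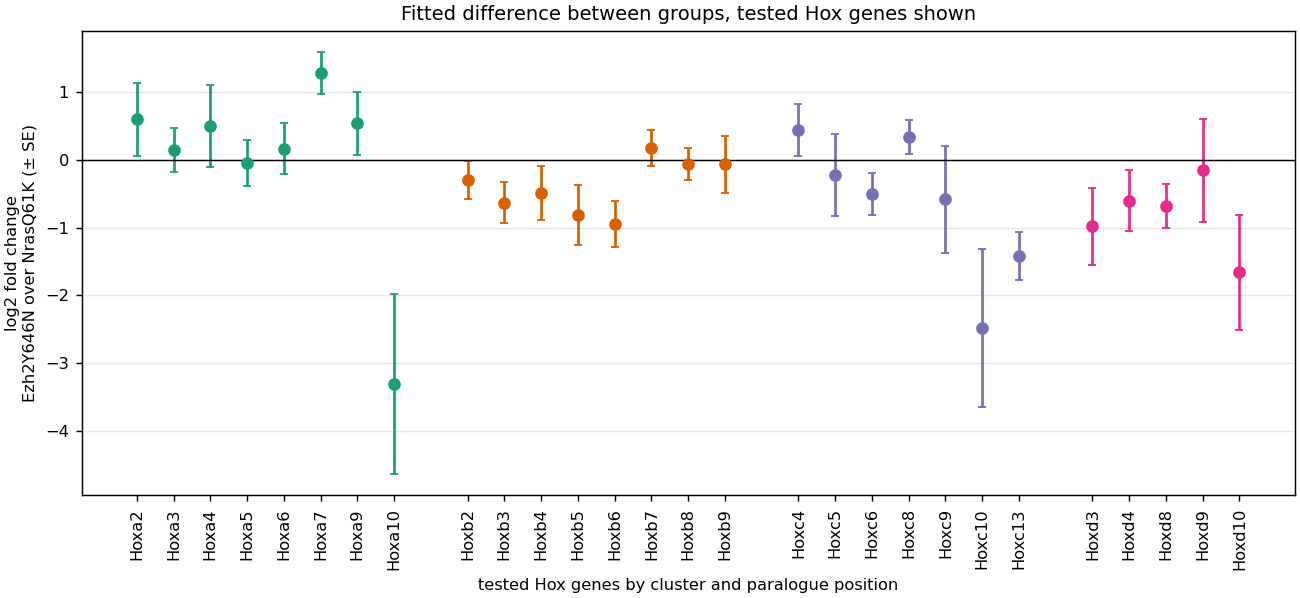
Log2 fold change, Ezh2Y646N over NrasQ61K, with its standard error, for 28 of the tested Hox genes in the order of cluster and paralogue position. Of 8 Hoxa genes drawn 6 lie above 0, with Hoxa7 highest at 1.28, while 5 of 5 Hoxd genes lie below 0. The lowest values, with the widest errors, belong to Hoxa10 and Hoxc10. Hoxa10, Hoxc10 and Hoxd10 passed the filter on low counts only through the NrasQ61K libraries.

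In the Hoxa cluster (chromosome 6, 52155590 to 52260880 on GRCm38) the change in the sum came mostly from 1 gene. Hoxa7 (ENSMUSG00000038236, 52214491 to 52221854, minus strand), which helps set the identity of the upper trunk, had 1992 and 2379 counts in the Ezh2Y646N libraries and 690 and 1489 in the NrasQ61K libraries. These were 114 and 164 CPM against 43.6 and 71.4 CPM. Both Ezh2Y646N libraries lay above both NrasQ61K libraries, which differed between themselves by more than the Ezh2Y646N pair did in proportion. Group means came to 139 ± 35.2 and 57.5 ± 19.7 CPM (SD over 2 libraries each), and the difference was 1.28 on the log2 scale, with a standard error (SE) of 0.31 and an adjusted p of 0.0969 in edgeR. Hoxa7 alone was 25.9% and 32.2% of the summed Hox level in the Ezh2Y646N libraries and 8.04% and 15.5% in the NrasQ61K libraries. Of its exonic bases 20.4% lie opposite the antisense gene Hoxaas3, which was not analysed here, and the strand setting of the counting is not given, so antisense reads may be part of its count.

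Its neighbours did not separate the groups to the same degree. Hoxa6, next to it on the head side, was at 6.44 and 7.18 against 6.32 and 5.8 CPM, a narrow separation with a log2 fold change of 0.17 (SE 0.37). The count of Hoxa7 over that of Hoxa6, which needs no scaling between libraries, was 17.8 and 22.9 in Ezh2Y646N and 6.9 and 12.3 in NrasQ61K. Hoxa9, a gene of limb and blood progenitors on the tail side, was at 7.7 and 7.46 against 3.16 and 7.24 CPM, so that NrasQ61K replicate 2 lay just under the Ezh2Y646N libraries and replicate 1 far under them, and its log2 fold change was 0.54 (SE 0.47). Hoxa5, used in lung and upper trunk, was at 16.8 and 10.6 against 12.7 and 15.6 CPM, with the groups interleaved and a log2 fold change of -0.04 (SE 0.34). Hoxa2, Hoxa3 and Hoxa4, which pattern the hindbrain and neck, ranged from 1.52 to 10.5 CPM per library, had log2 fold changes of 0.15 to 0.60, and each overlapped between groups. Hoxa10, a gene of the lumbar region and uterus, was lower in the Ezh2Y646N libraries. It had 2 and 0 counts in the Ezh2Y646N libraries against 10 and 15 in the NrasQ61K libraries, and passed the filter only through the latter. The ratio of summed counts scaled by library size was 0.092 (exact 95% counting interval 0.0106 to 0.369), and edgeR's adjusted p was 0.308.

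**Figure D3:**
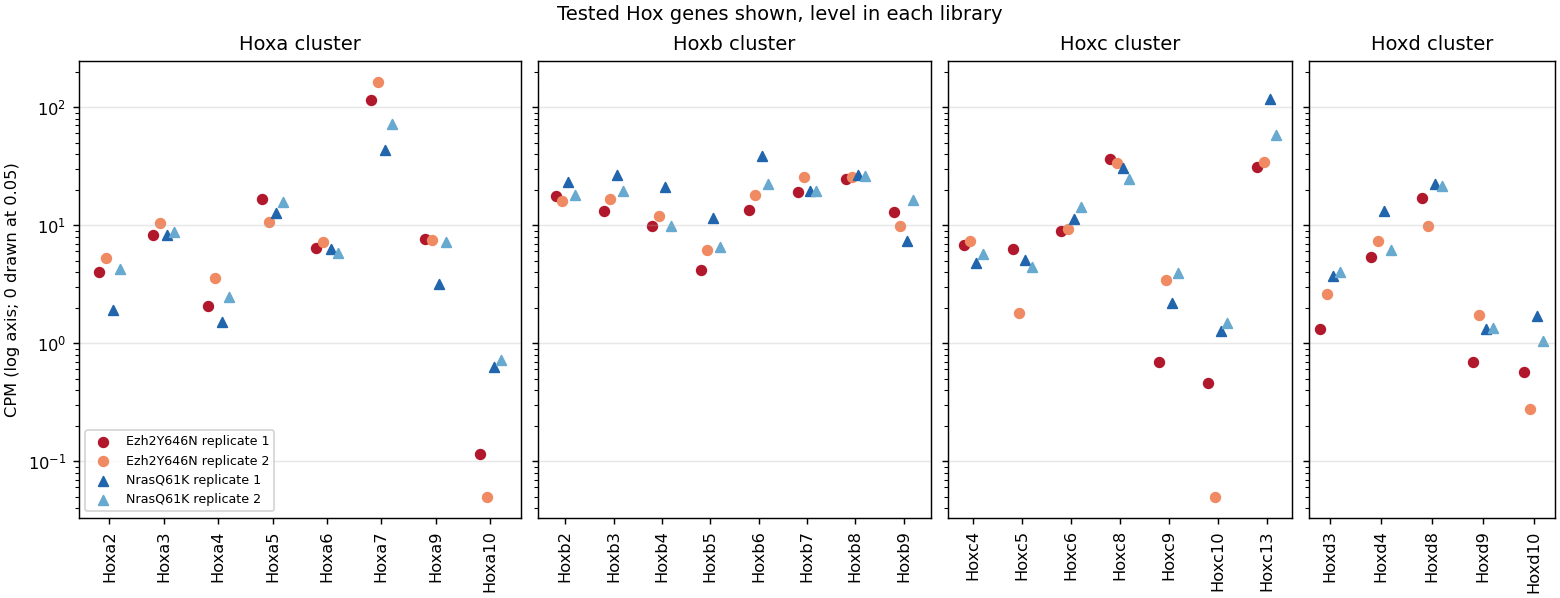
CPM on a log axis of 28 of the tested Hox genes in each library, with circles for Ezh2Y646N and triangles for NrasQ61K, and 0 drawn at 0.05. The circles of Hoxa7 lie above its triangles (114 and 164 against 43.6 and 71.4 CPM) and those of Hoxc13 below (31.3 and 34.4 against 118 and 57.9 CPM), while the 4 points of Hoxb8 lie between 24.5 and 26.5 CPM.

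In the Hoxb cluster (chromosome 11, 96194316 to 96368256) Hoxb2 to Hoxb6 had values of -0.94 to -0.29 and Hoxb7 to Hoxb9 had values nearer 0. Hoxb6 (ENSMUSG00000000690), a gene of the upper trunk, had 233 and 263 counts in the Ezh2Y646N libraries and 606 and 464 in the NrasQ61K libraries, or 13.4 and 18.2 against 38.3 and 22.3 CPM. The groups did not overlap, but NrasQ61K replicate 2 lay nearer to the Ezh2Y646N libraries than to its partner. Its log2 value was -0.94 (SE 0.34), with an adjusted p of 0.25 in edgeR. Hoxb3 was at 13.3 and 16.6 against 26.8 and 19.6 CPM (log2 fold change -0.63, SE 0.30), and Hoxb5 at 4.14 and 6.22 against 11.6 and 6.57 CPM (-0.81, SE 0.44). Hoxb2 followed in sign with -0.29. Hoxb4, known for the growth of blood stem cells, was at 9.83 and 12 against 21 and 9.83 CPM, so its value of -0.49 rested on NrasQ61K replicate 1, without which it was 0.15. Of the exonic bases of Hoxb3 and Hoxb2, 52.9% and 27.3% lie opposite the antisense gene Hoxb3os, which was not analysed here.

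Hoxb7 and Hoxb8, also trunk genes, had values near 0. Hoxb8 was at 24.5 and 25.7 against 26.5 and 26 CPM, so the groups stood apart only narrowly, with a log2 value of -0.06 (SE 0.24). Hoxb7 was at 19 and 25.5 against 19.6 and 19.5 CPM, with a value of 0.18 (SE 0.27). Set against these neighbours, Hoxb6 stood lower in Ezh2Y646N: its count over that of Hoxb7 was 0.706 and 0.713 against 1.95 and 1.14. Hoxb9 was at 12.9 and 9.88 against 7.39 and 16.3 CPM, where the NrasQ61K libraries enclosed the Ezh2Y646N libraries.

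In the Hoxc cluster (chromosome 15, 102921103 to 103036852) Hoxc13 took the larger part of the sum in the NrasQ61K libraries. Hoxc13 (ENSMUSG00000001655, 102921103 to 102928814, plus strand) had 545 and 498 counts in the Ezh2Y646N libraries and 1871 and 1207 in the NrasQ61K libraries. These were 31.3 and 34.4 against 118 and 57.9 CPM, so the Ezh2Y646N libraries were close together and both NrasQ61K libraries were above them, replicate 1 by the wider margin. On average it reached 32.9 ± 2.17 and 88.1 ± 42.7 CPM (SD over 2 libraries each), and on the log2 scale the difference was -1.42 (SE 0.35), with an adjusted p of 0.0974 in edgeR. No other annotated gene shares exonic bases with it. Within each library the count of Hoxa7 over that of Hoxc13, a pair chosen after the values were seen, was 3.66 and 4.78 in Ezh2Y646N and 0.369 and 1.23 in NrasQ61K.

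Hoxc13 is known to act on genes of the hair shaft, and 6 of these were called lower in the Ezh2Y646N libraries. Of 17 listed hair shaft genes, 16 were tested, and 0 were higher and 6 lower by edgeR's adjusted p. Of all genes tested, 1.1% and 0.673% were called in these directions. The list was chosen with earlier results of these data known, so its share only describes it. A link to the level of Hoxc13 was not tested. The 6 that fell are hair keratins, Krt35 (-2.98), Krt87 (-3.10), Krt81 (-3.97), Krt83 (-3.23), Krt86 (-3.64) and Krt34, which had 0 counts in both Ezh2Y646N libraries and 45 and 38 in NrasQ61K. The median of the list was -3.16. Hair keratins are near copies of each other, so reads may have been divided between them. Their calls were close to the threshold. Without Ezh2Y646N replicate 1 none of the 6 passed, and without Ezh2Y646N replicate 2 only Krt86 did. Without NrasQ61K replicate 1 Krt86 and Krt34 did not pass, and limma voom did not call Krt81, Krt83 and Krt86. Krt83 and Krt34 did not pass with RLE size factors, nor after removal of small RNA, haemoglobin and mitochondrial genes. Foxn1, a factor of hair differentiation placed downstream of Hoxc13 in mouse, was at 31.4 and 31.4 against 33.7 and 26.7 CPM (log2 fold change 0.06, SE 0.25), and the hair keratin Krt84 was at 2.82 and 4.07 against 3.41 and 3.21 CPM. The list summed to 181 and 132 CPM in the Ezh2Y646N libraries and to 1176 and 493 CPM in the NrasQ61K libraries, with NrasQ61K replicate 1 highest as for Hoxc13.

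Summed markers of other compartments of the hair follicle and of the dermis were higher in the NrasQ61K libraries, as Hoxc13 was. The 9 inner root sheath markers summed to 903 and 742 against 2617 and 1565 CPM, with 3 of 9 called lower and 0 higher. Gata3, a member of that list picked out after its values were seen, lay on the other side, at 461 and 538 against 202 and 252 CPM (edgeR's adjusted p = 0.0703). The 10 dermal papilla markers summed to 176 and 107 against 712 and 276 CPM, with 2 called lower. The 10 fibroblast markers summed to 852 and 2090 against 4113 and 2466 CPM, with 3 called lower, and Ezh2Y646N replicate 2 lay close to NrasQ61K replicate 2. None of these markers was at 0 in all libraries. Of 9 epidermal markers 2 were called higher, the cornified layer genes Lor (3.66) and Ivl (1.84), the second not without Ezh2Y646N replicate 1. In the Ezh2Y646N libraries the largest members of the epidermal sum were Krt10, of the layers above the basal one, and Dsp. Krt10 was at 24868 and 16045 against 1650 and 4309 CPM, and Dsp at 15719 and 15878 against 6430 and 11756 CPM. The basal keratin Krt14, picked out after its values were seen, was at 3847 and 5903 against 3385 and 9118 CPM. Both the epidermal sum and Hoxa7 were lowest in NrasQ61K replicate 1 and next lowest in NrasQ61K replicate 2. Melanocyte markers had 0 of 12 called, with a median of 0.20. Schwann cell markers had 1 of 8 called higher, with a median of 1.21. Endothelial, macrophage and muscle markers had 0 of 8 called each. Of all genes tested, 1.1% were called higher and 0.673% lower. Every endothelial, macrophage, fibroblast and dermal papilla marker lay below 0, beside 54% of all genes. Endothelial and macrophage medians were -0.72 and -1.38. An unadjusted p under 0.05 in edgeR, in either direction, was found in 6 of 8 macrophage markers, beside 14.3% of all genes. It was also found in 9 of 9 inner root sheath, 7 of 10 fibroblast and 6 of 10 dermal papilla markers. Schwann cell, epidermal and endothelial lists held 5 of 8, 4 of 9 and 2 of 8, and melanocyte and muscle lists 0. The muscle median was 0.58. The part of these cell types in the levels of Hoxc13, Hoxa7 and the other Hox genes was not tested.

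**Figure D4:**
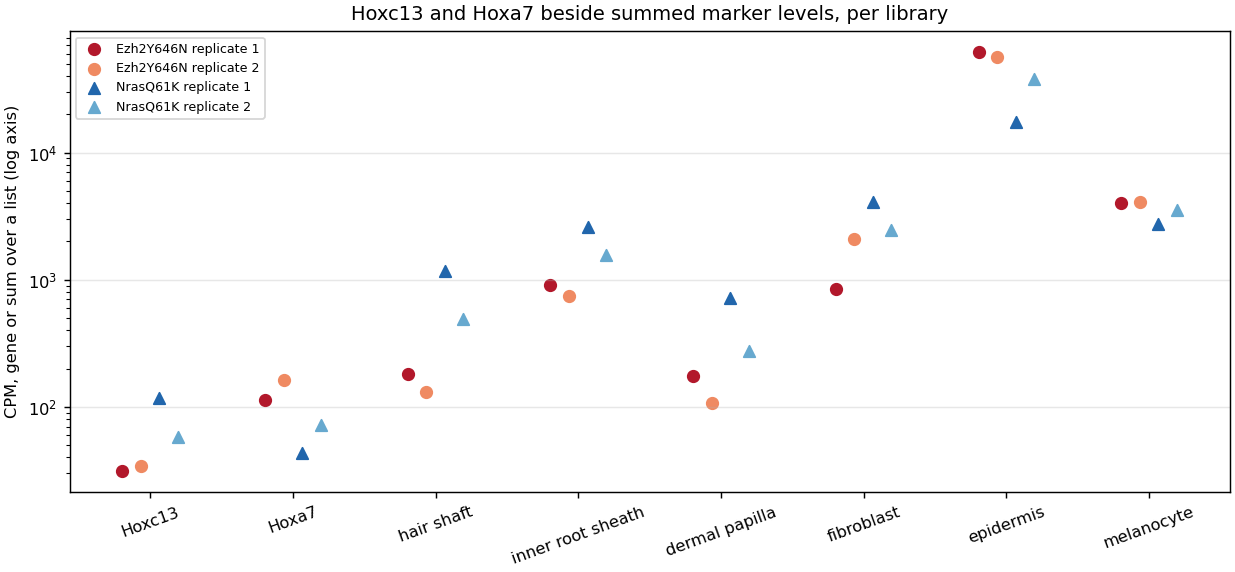
CPM of Hoxc13 and Hoxa7, and CPM summed over marker lists, in each library on a log axis, with circles for Ezh2Y646N and triangles for NrasQ61K. Hoxc13, hair shaft, inner root sheath, dermal papilla and fibroblast sums are highest in NrasQ61K replicate 1 (118, 1176, 2617, 712 and 4113 CPM), and Hoxa7 and the epidermal sum are lowest there (43.6 and 17445 CPM).

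Of the remaining Hoxc genes, tested values lay on both sides of 0. Hoxc8, a gene of the lower trunk and, at 12.9 CPM per kb, just above Hoxc13 in Ezh2Y646N replicate 1, was at 36.4 and 33.4 against 30.6 and 24.6 CPM, with no overlap and a log2 fold change of 0.34 (SE 0.25). Hoxc4 was at 6.84 and 7.39 against 4.8 and 5.66 CPM (0.44, SE 0.38), and Hoxc6 at 8.85 and 9.32 against 11.4 and 14.3 CPM (-0.50, SE 0.31). None of these 3 had an unadjusted p under 0.05. Hoxc5 and Hoxc9 were uneven within the Ezh2Y646N group. Hoxc5 was at 6.32 and 1.8 CPM there, on either side of the NrasQ61K values of 5.12 and 4.41 CPM. Hoxc9 was at 0.69 and 3.45 against 2.21 and 3.93 CPM and also overlapped. Hoxc10, a gene of the lumbar spine and hindlimb, had 8 and 0 counts against 20 and 31. Of its exonic bases 8.7% are shared with Hoxc5. Hoxc12 had 2 and 1 counts against 4 and 8, a scaled ratio of 0.288 whose counting interval of 0.0521 to 1.07 included 1.

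In the Hoxd cluster (chromosome 2, 74668310 to 74765142) all 5 tested genes had log2 fold changes below 0, where 54% of all genes tested did. None had an unadjusted p under 0.05 in edgeR. Hoxd10 is among the 5 and passed the filter only through the NrasQ61K libraries, so its sign is no support for a direction. Hoxd8, a trunk gene and the highest of the cluster, was at 17.1 and 9.94 against 22.2 and 21.3 CPM, with no overlap and a log2 value of -0.68 (SE 0.33), at an adjusted p of 0.419 in edgeR. Hoxd3 was at 1.32 and 2.62 against 3.73 and 4.03 CPM (-0.98, SE 0.57), and Hoxd4 at 5.4 and 7.32 against 13.1 and 6.19 CPM (-0.60, SE 0.45), the last resting on NrasQ61K replicate 1, without which it was 0.04. Hoxd3 and Hoxd4 cannot be read apart with confidence, since 62.3% and 52.3% of their exonic bases are shared with each other or with Gm28230, which is also in the files. Gm28230 was at 2.93 and 6.42 against 9.98 and 5.99 CPM. Hoxd9 had 12 and 25 counts against 21 and 28 and overlapped. Hoxd11 had 0 counts in both Ezh2Y646N libraries and 3 and 5 in the NrasQ61K libraries, near the 3 counts that a count of 0 allows.

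By paralogue position, the low genes at position 10 shared one direction. Hoxd10, which patterns the hindlimb, had 10 and 4 counts against 27 and 22, or -1.66 on the log2 scale (SE 0.85), with an adjusted p of 0.453 in edgeR. For Hoxa10 and Hoxc10 the fitted values were -3.31 (SE 1.33) and -2.48 (SE 1.17), with no count in Ezh2Y646N replicate 2. The scaled ratios of summed counts were 0.18 for Hoxc10 (counting interval 0.074 to 0.383) and 0.329 for Hoxd10 (0.168 to 0.605), and these intervals do not hold the spread between libraries. Summed over the 3 genes, counts were 20 and 4 in the Ezh2Y646N libraries and 57 and 68 in the NrasQ61K libraries. All 3 passed the filter only through the NrasQ61K libraries, where they are high, so their number is no support for a difference. Each lay at 1.71 CPM or less. The median log2 fold change over the 8 tested genes at positions 9 to 13 was -1.0 with these 3 included, but -0.37 with no filter on low counts and -0.10 without NrasQ61K replicate 2, so it is not set against the -0.06 of positions 4 to 8 or the -0.07 of positions 1 to 3.

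At the other positions with several tested genes, paralogues are given side by side. At position 7, Hoxa7 differed between groups by 1.28 and Hoxb7 by 0.18 on the log2 scale, and the count of Hoxa7 over that of Hoxb7 was 6.04 and 6.45 in Ezh2Y646N against 2.23 and 3.66 in NrasQ61K. At position 6 the values were 0.17 for Hoxa6, -0.94 for Hoxb6 and -0.50 for Hoxc6, and the count of Hoxb6 over that of Hoxa6 was 2.08 and 2.53 against 6.06 and 3.83. At position 8 they were -0.06 for Hoxb8, 0.34 for Hoxc8 and -0.68 for Hoxd8, while at position 5 they were -0.04 for Hoxa5, -0.81 for Hoxb5 and -0.22 for Hoxc5. At position 4 they were 0.50 for Hoxa4, -0.49 for Hoxb4, 0.44 for Hoxc4 and -0.60 for Hoxd4. Differences between paralogues were not tested, and at position 4 the standard errors were 0.38 to 0.61.

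No partner or regulator of the Hox genes in the lists below, retinoic acid apart, passed the threshold. The TALE homeodomain cofactors Pbx, Meis and Pknox, which bind DNA together with Hox proteins, were all measured, with 0 of 9 called. Meis1 was at 32.2 and 41.1 against 28.4 and 31.1 CPM, a log2 fold change of 0.30 (SE 0.25). Pknox2 had the smallest p of the list, at 8.79 and 9.74 against 4.23 and 3.74 CPM (1.22 on the log2 scale, SE 0.37, with an adjusted p of 0.17 in edgeR). Of 11 PRC2 genes 0 were called, with a median of -0.10, and the accessory subunit Phf19 had the smallest p (1.66, SE 0.62, with an adjusted p of 0.271 in edgeR). It was at 8.56 and 3.04 against 2.21 and 1.49 CPM, and its value was 0.72 without Ezh2Y646N replicate 1. It was called when no filter was applied (adjusted p = 0.0417 in edgeR). Of 12 genes of Polycomb repressive complex 1, which binds the mark laid by PRC2, 0 were called, and Phc1 and Cbx7 had log2 fold changes of -0.90 and 0.68. Of 9 genes of the MLL complexes and the demethylases that remove the mark 0 were called, the smallest p belonging to the demethylase Kdm6b (-0.43).

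Retinoic acid is a classic inducer of Hox genes, and 2 of the enzymes that make it were lower in the Ezh2Y646N libraries. Of 14 listed genes 12 were tested, and 2 fell, where 0.673% of all genes did. Log2 fold changes lay above 0 in 5 of the 12 and below 0 in 7, with a median of -0.04. This list too was chosen with earlier results of these data known, so its share only describes it. Aldh1a2, the main embryonic retinaldehyde dehydrogenase, had 7 and 1 counts against 106 and 314, or -5.43 on the log2 scale (SE 0.77), with an adjusted p of 0.0293 in edgeR and of 0.0942 in limma voom. Aldh1a3, a second such enzyme, was at 11.7 and 6.56 against 116 and 35.7 CPM (-3.05, SE 0.57, adjusted p = 0.0491). The call of Aldh1a3 was lost with either Ezh2Y646N library left out (edgeR's adjusted p of 0.186 and 0.274) in limma voom (0.0889) and with RLE size factors (0.0516). The receptors Rxra and Rarg, the most abundant genes of the list, differed by 0.57 and 0.45 on the log2 scale and did not pass. Crabp1, a binding protein for retinoic acid that is also a dermal papilla marker, had a value of -0.98 (edgeR's adjusted p = 0.298). A link between the genes of this list and the Hox levels was not tested, nor was the part of cell types in their levels.

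Whether the leading Hox genes were called turned on the method, filter and model terms, as given above, and on NrasQ61K replicate 2. Without that library, with the lone NrasQ61K sample assumed to vary like the other group, Hoxa7 had a log2 fold change of 1.72 (edgeR's adjusted p = 0.00519), Hoxc13 one of -1.81 (0.00112) and Hoxb6 one of -1.24 (0.0355), and 7.66% of all genes were called. Without NrasQ61K replicate 1 the values were 0.96, -0.82 and -0.50, none called, with the smallest adjusted p at 0.12. Hoxa7, Hoxc13 and Hoxb6 kept their sign in each of the 4 fits with a library left out. Counts were also simulated from the fitted trend of spread with level, which leaves out differences in spread between genes of like level. In these the test recovered 21% of changes of 1 and 90% of changes of 2 on the log2 scale. The changed genes were drawn from all 14265 at any level, so these shares do not give the chance of calling Hoxb6.

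**Figure D5:**
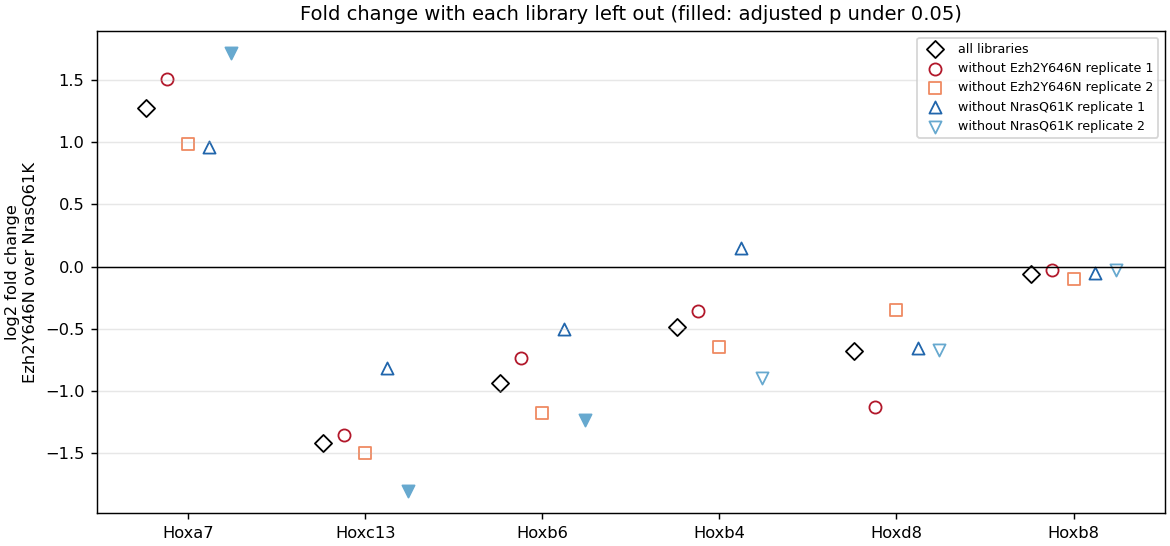
Log2 fold change of 6 Hox genes with all libraries and with each library left out in turn, filled where the adjusted p is under 0.05. Hoxa7, Hoxc13 and Hoxb6 are filled only without NrasQ61K replicate 2 (1.72, -1.81 and -1.24), Hoxb4 crosses 0 without NrasQ61K replicate 1 (0.15), and the 5 values of Hoxb8 lie between -0.10 and -0.03.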

How the data were processed

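The deposited values are whole-number read counts per Ensembl gene, with no normalization by the authors, each library in a file of its own. Listed in the submitters' processing notes, without roles, are GRCm38, STAR 2.5.4b, featureCounts, edgeR, bcl2fastq 2.19 and Trimmomatic. No source used here gives the annotation release, strand setting or gene filter. Per the labels' protocols, libraries were made with a stranded kit for small inputs that removes ribosomal RNA. Symbols, positions and merged exon lengths came from GENCODE M21 on GRCm38, in which 22291 identifiers were found and 233 were not. The test was that of edgeR 4.0.16, run in R 4.3.3 (filterByExpr with minima of 10 and, in total, 15 counts; TMM; robust quasi-likelihood fit with group as the term and 2 residual degrees of freedom), with Benjamini-Hochberg adjustment over all genes tested and a threshold of 0.05. DESeq2 1.42.0, limma 3.58.1 voom, other scalings and filters, a replicate term and leaving out each library were alternatives. The fit was tested on simulated data. The SE is the log2 fold change divided by the root of F. The Hox genes and all lists were chosen with earlier results of these data known. Named genes are the Hox genes, apart from a result not reported here, and, from the other lists, up to 3 genes of smallest p, the 2 of highest level and any hair shaft, TALE or PRC2 gene. Cbx7 and Crabp1 enter by p, and the genes at 0 beside the clusters, with Cdx1, Pdx1, Gata3, Krt14, Aldh1a1 and Crabp2, were named after their counts were seen.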

Additional observations from a re-analysis of the deposited data

How the results depend on the processing

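Of 196 fold changes of single Hox genes under alternatives that keep all 4 libraries, 187 kept their direction and their side of the threshold, 8 passed it where they had not (Hoxa7, Hoxc13 and Hoxb6) and 1 changed sign. Hox genes called higher and lower numbered 1 and 1 with DESeq2, 1 and 2 with no filter on low counts, 1 and 2 with the replicate number as a block, and 0 to 1 and 0 to 2 with a library left out. All genes called numbered 529 and 398, 686 and 616, and 710 and 627 under those 3 settings, against 157 and 96, and 49 to 730 and 43 to 393 with a library left out. The block gave Hoxb9 a value of 0.03. Same-numbered libraries deviated from their group means with a correlation of 0.108 over genes, and the labels do not say that numbers pair libraries. The median over Hox genes was -0.32 in voom, -0.16 with no filter and -0.28 with the block, and for positions 9 to 13 it was -1.18, -0.37 and -1.10. With a library left out the medians ranged from -0.36 to -0.08 over all Hox genes, 0.08 to 0.58 for Hoxa, -0.65 to -0.29 for Hoxc, -0.95 to -0.56 for Hoxd, -0.34 to 0.01, -0.36 to 0.04 and -1.38 to -0.10 for positions 1 to 3, 4 to 8 and 9 to 13. Genes that changed sign ranged from -0.04 to 0.31 (Hoxa3), -0.42 to 0.25 (Hoxa5), -0.90 to 0.15 (Hoxb4), -0.05 to 0.38 (Hoxb7), -0.52 to 0.66 (Hoxb9), -1.40 to 0.40 (Hoxc5), -2.15 to 0.16 (Hoxc9), -1.0 to 0.04 (Hoxd4), -0.95 to 0.37 (Hoxd9), -0.55 to 0.59 (Ezh2), -0.06 to 0.24 (Foxn1), -0.90 to 0.57 (Krt14) and -0.24 to 0.30 (Krt84). The cause was not tested. With 2 libraries a group and low counts in many genes at the cluster ends, small differences may have gone undetected.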
